A study of Homo sapiens with 4 samples.

Results

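The 6 mitochondrial DNA genes *COX1*, *COX2*, *COX3*, *CYTB*, *ATP6* and *ATP8* were examined after silencing of circZFR in human lung cancer cells. They were taken by symbol from the deposited tables and make up the mitochondrially encoded subunits of respiratory complexes III, IV and V. All 6 were among the 40205 genes listed, where they carry the gene type ncRNA, although they encode proteins. In both si-circZFR libraries every member was lower than in both control libraries, with log2 fold changes (log2FC) from -1.25 to -0.94. None of these differences passed the test used here, and libraries of the same group also differed, by up to 1.17 on the log2 scale.

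Mitochondrial DNA is a small circle that is transcribed from both strands into long precursors. The precursors are cut into messenger, ribosomal and transfer RNAs, mostly at the transfer RNAs that lie between the other genes. The mRNAs of all 6 members come from the heavy-strand precursor. *CYTB* encodes cytochrome b, the core of complex III, which passes electrons from ubiquinol to cytochrome c. *COX1*, *COX2* and *COX3* encode the core of complex IV, cytochrome c oxidase, which hands the electrons to oxygen. *ATP6* and *ATP8* encode membrane subunits of complex V, the ATP synthase. The other subunits of these complexes are encoded in the nucleus, and both sets are needed for oxidative phosphorylation (OXPHOS), the process the study addressed.

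Positions were taken from the GRCh38 mitochondrial chromosome, and the gene lengths there gave whole reads for every mitochondrial gene in the tables. All 6 genes are on the plus strand of the reference. *COX1* lies at chrM:5904-7445, *COX2* at chrM:7586-8269, *ATP8* at chrM:8366-8572, *ATP6* at chrM:8527-9207, *COX3* at chrM:9207-9990 and *CYTB* at chrM:14747-15887. Each is a single exon. Their GC content was 39.6% in *ATP8*, 44.2% in *ATP6* and between 46.2% and 46.6% in the other 4. *ATP8* and *ATP6* overlap by 46 bases, which is 22.2% of *ATP8*, and the end of *ATP6* shares 1 base with *COX3*. The 3 sequences that follow are shown because reads across these borders belong to 2 members at once. In capitals are the start codon of *ATP6*, the stop codon of *ATP8*, and the joined stop codon of *ATP6* and start codon of *COX3*.
Start of ATP6 inside ATP8, chrM:8518-8547: agaaccaaaATGaacgaaaatctgttcgct
End of ATP8 inside ATP6, chrM:8555-8584: ttgcccccacaatccTAGgcctacccgccg
End of ATP6 and start of COX3, chrM:9193-9222: cacgacaacacaTAATGacccaccaatcac
How the authors assigned reads in these overlaps is not given in the sources used here, so the values of *ATP8*, and less so of *ATP6*, are uncertain.

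The ends of the other members are shown because they differ in how the reading frame closes. Capitals mark the last codon, or what DNA encodes of it.
End of COX1, chrM:7422-7445: gaacccgtatacataaaatctAGA
End of COX2, chrM:8246-8269: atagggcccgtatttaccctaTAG
End of COX3, chrM:9967-9990: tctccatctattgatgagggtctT
End of CYTB, chrM:15864-15887: aaaacaaaatactcaaatgggccT
In *COX3* and *CYTB* the DNA supplies only the T, and the poly(A) tail is known to complete the stop codon. *COX3* ends directly at a transfer RNA gene of the same strand, and so does *CYTB*. *COX1* is followed by a transfer RNA gene of the opposite strand.

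RNA-seq was performed on 4 libraries of total RNA. NC 1 and NC 2 came from cells transfected with negative control siRNA, and si-circZFR 1 and si-circZFR 2 from cells transfected with siRNA against circZFR, a circular RNA made from exons of *ZFR*. Transfection lasted 24 h in both groups, in medium with fetal calf serum. The sample labels name H1299 cells, whereas the series design names A549, as does the article for its RNA-seq after silencing. Both are established human lung cancer lines. The labels do not say whether the libraries came from separate cultures, so p-values cannot be taken to measure the spread between cultures. Standard errors and p-values of the limma fit also draw on a variance trend over all genes. They are therefore not the spread of a gene's own libraries alone. Library totals were 11040050 to 12816868 mapped reads. *ZFR*, which the tables do not separate into circle and linear mRNA, had scaled RPKM values of 25.8 and 32.5 in NC and 5.21 and 4.61 in si-circZFR (log2FC -2.34 with a standard error of 0.18, and FDR = 0.0481 by limma). The article reports, by RT-PCR in HCC827 and A549 cells, that siRNA against the circle's junction left *ZFR* without detectable change. Which form fell here was not tested, so no difference given here can be assigned to the circle alone. *KRT8* and *KRT18*, epithelial keratins, were at 730 to 1770 scaled RPKM in all 4 libraries, and *NKX2-1*, a lung lineage factor, was at 0 in all 4. The epithelial adhesion genes *CDH1* (11.3 and 8.68 in NC, 21.5 and 21.2 in si-circZFR) and *EPCAM* (0.394 and 0.41 in NC, 1.81 and 2.65 in si-circZFR) were higher in both si-circZFR libraries than in both NC libraries. *CDH1* had FDR = 0.0825 by limma. *EPCAM* was near the floor in NC and met the expression filter of the test only through the si-circZFR libraries, so its FDR is not given. Of the other lung epithelial line markers, *KRT19* had a log2FC of 0.69 (FDR = 0.181), *KRT8* 0.37 (FDR = 0.593), *KRT18* 0.34 (FDR = 0.594) and *VIM*, a mesenchymal filament gene, -0.19 (FDR = 0.697). The part of these differences in the other results was not tested. Of 7 markers of leukocytes, endothelium, fibroblasts and hepatocytes, the highest value was 1.88 (*COL1A1* in si-circZFR 2), *PTPRC*, *CD3E* and *ALB* were at 0, and the summed level of all 7 was 1.49 and 1.55 in NC and 1.40 and 2.43 in si-circZFR.

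The members were among the most abundant RNAs of these cells. Reads on the 6 genes were 6.62% of all mapped reads in NC 1 (95% Wilson interval 6.61% to 6.64%), 8.73% in NC 2 (8.71% to 8.75%), 5.51% in si-circZFR 1 (5.50% to 5.52%) and 3.12% in si-circZFR 2 (3.11% to 3.13%). The intervals cover counting error only. NC libraries averaged 7.68% ± 1.49 (SD, n = 2) and si-circZFR libraries 4.31% ± 1.69 (SD, n = 2), and the groups did not overlap. All 37 mitochondrial DNA genes together took 18.7% and 19.5% of the reads in NC and 16.8% and 10.2% in si-circZFR. The lowest count behind any member value was 7921 reads, for *ATP8* in si-circZFR 2, and the highest was 483142, for *COX1* in NC 2.

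**Figure D1:**
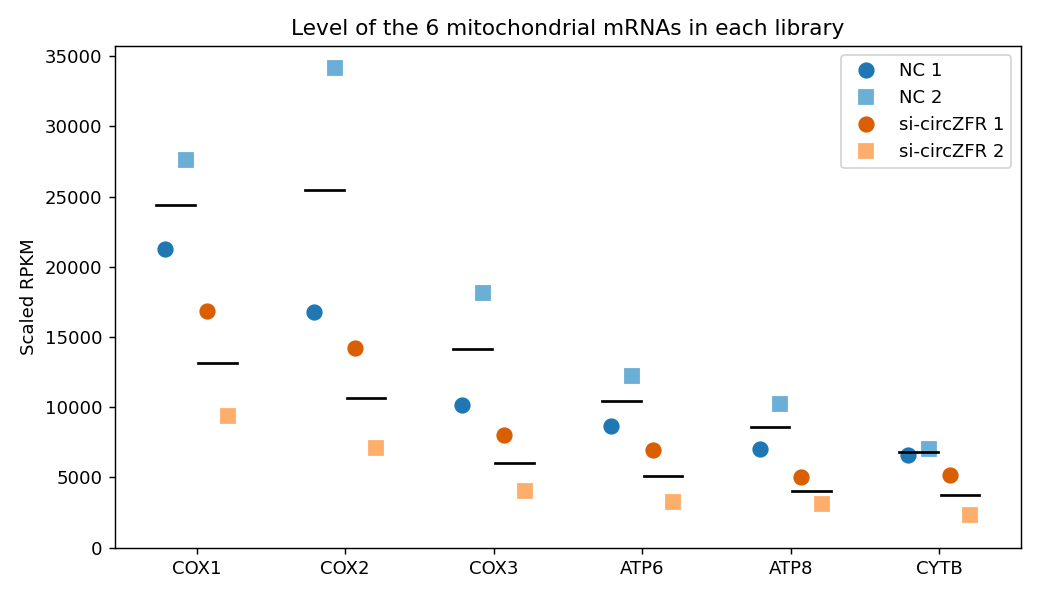
Scaled RPKM (vertical axis, linear from 0) of each of the 6 mRNAs in the 2 control and the 2 silenced libraries, with a horizontal bar at each group mean (n = 2). For every gene both si-circZFR points lie below both NC points, and NC 2 stands far above NC 1 for *COX2* (34138 against 16773).

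Levels are given as RPKM scaled between libraries, that is, reads relative to gene length and library total, with a further scaling factor per library. RPKM puts genes of different length on one scale, but it removes no other difference in how readily each RNA gives reads. The overlapping mitochondrial DNA genes *ND4L* and *ND4*, for example, had mean scaled RPKM of 14968 and 8055. Ranks and small steps between genes are therefore uncertain. Ranked by mean scaled RPKM among all 40205 genes listed, *COX1* was in place 2, *COX2* in place 3, *COX3* in place 5, *ATP6* in place 9, *ATP8* in place 11 and *CYTB* in place 13. Within a library, the log2 ratio of *COX1* to *COX2* was 0.17 ± 0.33 (SD over 4 libraries) and was positive in 3 of 4, so these neighbours in the order did not differ beyond their spread. *COX2* was above *COX3* in 4 of 4 libraries, by 0.82 ± 0.08 on the log2 scale. *COX3* was above *ATP6* in 4 of 4 (0.33 ± 0.16), and *ATP6* above *ATP8* in 4 of 4 (0.27 ± 0.16). *CYTB* was below *ATP6* in 4 of 4 libraries, but its log2 ratio to *ATP8* was -0.26 ± 0.28 and changed sign in si-circZFR 1. *ATP6* and *ATP8* are read from the same mRNA, so the ratio between their RPKM values is no ratio of 2 separate transcripts.

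The comparison of si-circZFR with NC asks how silencing of circZFR alters the mRNAs of OXPHOS. It was made by limma on log2(scaled RPKM + 1) over 13885 genes, those that reached an RPKM of 1 in 2 or more libraries, as all 6 members did. A gene was called at a false discovery rate (FDR, Benjamini-Hochberg) under 0.05 with |log2FC| over 1. No member was called, against 0.0576% of all genes tested (0.0288% called as lower). No member had an unadjusted p under 0.05 in this fit either, whereas 11.8% of all genes tested were lower and 9.51% higher at that level. By limma-voom on reads recovered from the RPKM values, and by limma with a single prior variance for all genes, all 6 members had an unadjusted p under 0.05 (12.3% and 11.9% of all genes tested were lower at that level in these fits). Their FDR was then 0.0898 to 0.186 and 0.145 to 0.229, against 0.315 to 0.515 in the fit reported, and up to 1 over all settings tried. The 6 log2FC had a median of -1.11, where the median of all genes tested was -0.01 and 5% of genes lay below -0.82. The groups did not overlap for 6 of 6 members, with si-circZFR lower. This held for 28.9% of all genes tested, and the opposite order for 27% of them. A log2FC below 0, whatever its size, was found in 50.9%, and one below -0.5 in 13.2%, of all genes tested. The 6 mRNAs come from the same precursor and are not independent. An exact permutation test of 2 libraries against 2 cannot give a two-sided p below 0.333. In bulk RNA, fewer cells of a type and less RNA per cell cannot be told apart, and the same holds for fewer mitochondrial DNA copies and less RNA per copy.

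In complex IV, *COX1*, which carries the heme and copper centre where oxygen is reduced, had 21234 and 27580 scaled RPKM in NC and 16823 and 9410 in si-circZFR. The si-circZFR mean was 0.537 times the NC mean, and si-circZFR 1 was closer to NC 1 than to si-circZFR 2. Its log2FC was -0.94 (standard error 0.78, FDR = 0.515 by limma). *COX2*, which receives electrons from cytochrome c, had 16773 and 34138 in NC and 14220 and 7073 in si-circZFR. NC 2 was far above the other 3 libraries. The log2FC of *COX2* was -1.25 (standard error 0.82, FDR = 0.414 by limma). *COX3*, a core subunit without a redox centre, had 10180 and 18107 in NC and 8042 and 4048 in si-circZFR. NC 2 was again highest, and NC 1 was closer to si-circZFR 1 than to NC 2. Its log2FC was -1.25 (standard error 0.69, FDR = 0.344 by limma).

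In complex III, *CYTB* had 6578 and 6997 scaled RPKM in NC and 5195 and 2308 in si-circZFR. The NC libraries were close together here, at 6787 ± 296 (SD, n = 2), and the spread lay within si-circZFR, at 3751 ± 2041 (SD, n = 2). The log2FC was -0.97 (standard error 0.59, FDR = 0.379 by limma).

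In complex V, *ATP6*, which forms part of the proton channel of the ATP synthase, had 8671 and 12206 scaled RPKM in NC and 6920 and 3273 in si-circZFR. The log2FC of *ATP6* was -1.11 (standard error 0.64, FDR = 0.36 by limma). *ATP8*, a small membrane subunit beside it, had 7017 and 10236 in NC and 5005 and 3115 in si-circZFR. Its log2FC of -1.10 (standard error 0.57, FDR = 0.315 by limma) had the lowest FDR of the 6. For both genes the order of the libraries was NC 2, NC 1, si-circZFR 1, si-circZFR 2, which held for every member in scaled RPKM. In RPKM as deposited, *CYTB* was higher in NC 1 (6495) than in NC 2 (6202).

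**Figure D2:**
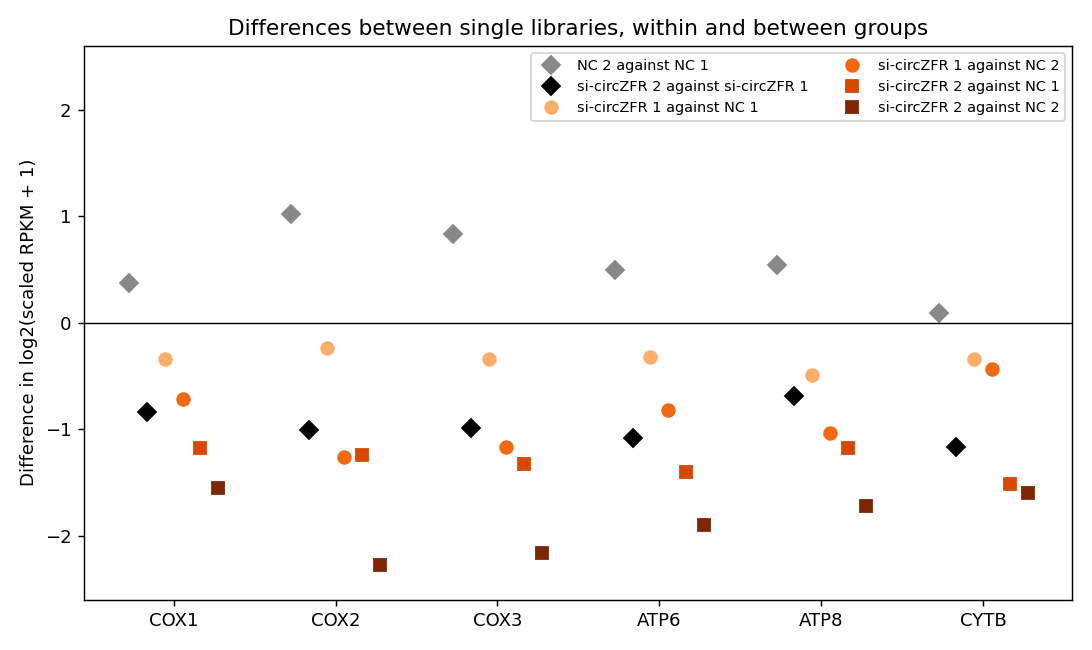
Difference in log2(scaled RPKM + 1) between single libraries for each gene, with diamonds for the 2 pairs within a group and circles and squares for the 4 pairs between groups. The si-circZFR 1 against NC 1 points lie from -0.49 to -0.24, whereas si-circZFR 2 against si-circZFR 1, a pair within a group, lies from -1.17 to -0.68.

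The size of the difference depended on which libraries were compared. Against NC 1, si-circZFR 1 was lower by a narrow range over the 6 members, from -0.49 for *ATP8* to -0.24 for *COX2* on the log2 scale. Against NC 2, si-circZFR 2 was lower by -2.27 for *COX2* to -1.55 for *COX1*. Within groups, si-circZFR 2 was below si-circZFR 1 for all 6 members, with a median of -0.999, and NC 2 was above NC 1 for all 6, with a median of 0.52. For *CYTB* the NC order held only with scaling between libraries. For comparison, 5% of all genes tested lay below -0.48 between the si-circZFR libraries and 5% above 0.70 between the NC libraries. The median log2FC of the members was -0.66 without si-circZFR 2, -0.83 without NC 2, -1.37 without NC 1 and -1.60 without si-circZFR 1. All 6 remained negative in each of these. Without NC 1, 3 of the 6 were lower at an unadjusted p under 0.05, as were 18.6% of all genes tested in that fit. Across all genes tested, log2FC was lower for shorter transcripts (Spearman's rho 0.292 over 13885 genes, which are not independent replicates). A trend with length was also present within NC, with a rho of -0.34 for NC 2 minus NC 1. It was 0.019 for si-circZFR 2 minus si-circZFR 1, so the trend is not particular to the group comparison. After a smooth correction for transcript length in each library the median of the members was -0.84.

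**Figure D3:**
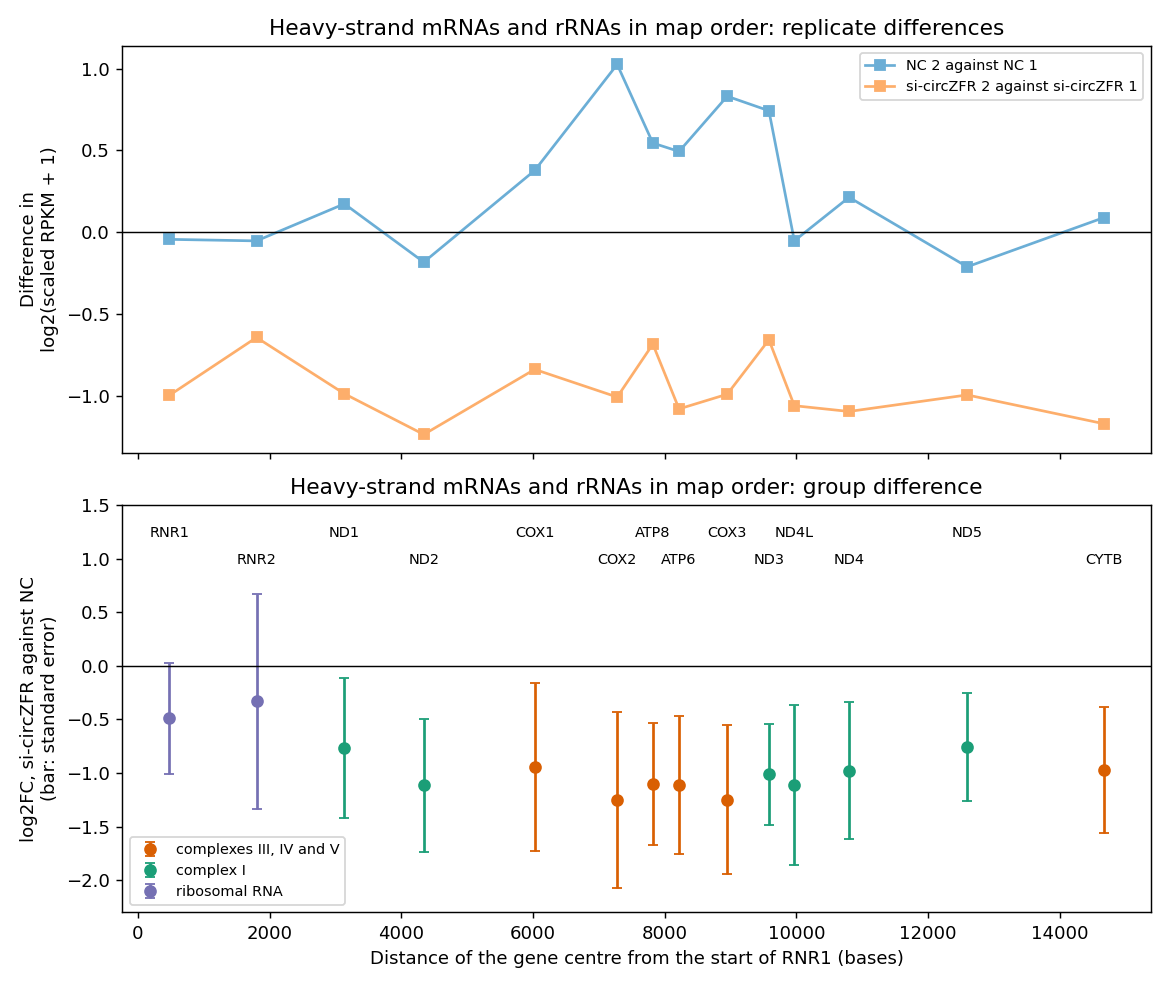
Heavy-strand mRNAs and ribosomal RNAs of mitochondrial DNA (transfer RNAs are not plotted) by the distance of their centre from the start of *RNR1* (horizontal axis, bases), with the differences in log2(scaled RPKM + 1) between replicates (top) and the log2FC of si-circZFR against NC with its standard error (bottom). NC 2 stands above NC 1 from *COX1* to *ND3*, by 0.38 to 1.03, and the log2FC of all 14 genes plotted is negative.

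Among heavy-strand mRNAs and ribosomal RNAs, the surplus of NC 2 over NC 1 was not even. It was 0.38 for *COX1*, 1.03 for *COX2*, 0.54 for *ATP8*, 0.49 for *ATP6*, 0.83 for *COX3* and 0.74 for the next mRNA, *ND3* of complex I. It was between -0.21 and 0.21 for the other heavy-strand mRNAs, *ND1*, *ND2*, *ND4L*, *ND4*, *ND5* and *CYTB*, and -0.05 and -0.04 for the ribosomal RNAs *RNR2* and *RNR1*. The short heavy-strand transfer RNAs in the same stretch did not share it, with -0.80 for *TRND*, -1.12 for *TRNK* (10 reads or fewer in each library) and 0.04 for *TRNG* (2 reads or fewer). *TRNS1*, of the opposite strand in this stretch, had 0.33 (22 reads or fewer). The 5 members from *COX1* to *COX3* therefore differed from *CYTB* in the control libraries. Between the si-circZFR libraries the same 5 members and *CYTB* lay from -1.17 to -0.68, and the 2 ribosomal RNAs at -0.997 and -0.643.

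The 7 complex I mRNAs of mitochondrial DNA had log2FC from -1.11 for *ND2* to -0.62 for *ND6*, with a median of -0.98. All 7 were lower in both si-circZFR libraries than in both NC libraries, as were 28.9% of all genes tested, and none of the 7 was called. *ND6*, the sole mRNA of the light strand, was the exception with an unadjusted p under 0.05, at an FDR of 0.211 by limma. The ribosomal RNAs of the mitochondrial ribosome, which open the heavy-strand unit, did not separate the groups. *RNR1* had 4310 and 4181 scaled RPKM in NC and 4269 and 2138 in si-circZFR. *RNR2* had 45178 and 43547 in NC and 44052 and 28206 in si-circZFR. For both, si-circZFR 1 lay between the NC libraries and si-circZFR 2 alone was low. The summed RPKM of the 6 members relative to that of the 2 ribosomal RNAs was 1.42 and 2.29 in NC and 1.16 and 0.963 in si-circZFR. This ratio does not depend on the scaling between libraries, and the groups did not overlap in it. NC 1 was nevertheless closer to si-circZFR 1 than to NC 2.

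**Figure D4:**
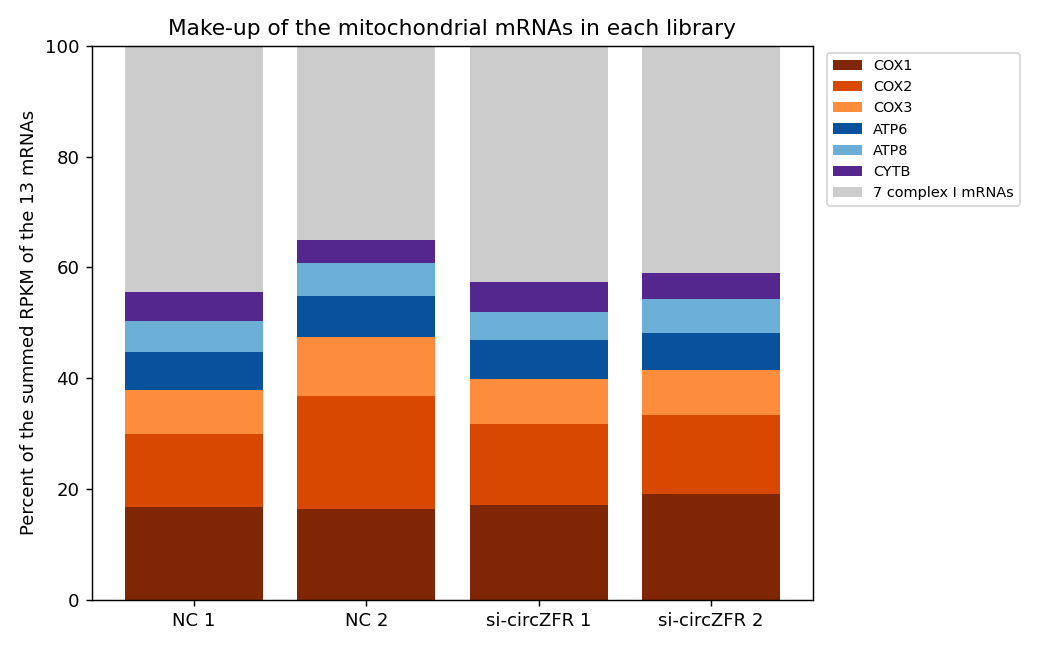
Share of each member in the summed RPKM of the 13 mitochondrial mRNAs (vertical axis, percent, from 0) in each library, with the 7 complex I mRNAs in grey. The 6 members sum to 55.5% in NC 1, 65.03% in NC 2, 57.3% in si-circZFR 1 and 59.0% in si-circZFR 2, so the groups overlap.

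Among the 13 mitochondrial mRNAs themselves, the summed share of the members did not separate the groups. By RPKM, only *COX1* and *ND1* of the 13 had shares that did, and that of *COX1* did not by reads. Of the summed RPKM, the 6 members held 60.3% ± 6.76 (SD, n = 2) in the controls and 58.2% ± 1.22 (SD, n = 2) after silencing. *COX2* held 13.2% and 20.3% in NC and 14.5% and 14.3% in si-circZFR. *COX1* held 16.7% and 16.4% in NC and 17.15% and 19.004% in si-circZFR, and the groups did not overlap. As a share of reads, not scaled to length, *COX1* held 28.55% and 28.78% in NC and 28.74% and 31.83% in si-circZFR. Its groups then overlapped, whereas those of *ND1* did not (9.10% and 7.96% in NC, 10.14% and 10.13% in si-circZFR). *ND1* of complex I held 8.59% and 7.33% in NC and 9.76% in each si-circZFR library. *COX3* held 8.02% and 10.8% in NC and 8.20% and 8.18% in si-circZFR, *ATP6* between 6.61% and 7.26% over the 4 libraries, *ATP8* between 5.10% and 6.29%, and *CYTB* between 4.16% and 5.30%. The ratio of *COX2* to *COX3* was the steadiest between members, with log2 values of 0.72 and 0.91 in NC and 0.82 and 0.81 in si-circZFR.

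**Figure D5:**
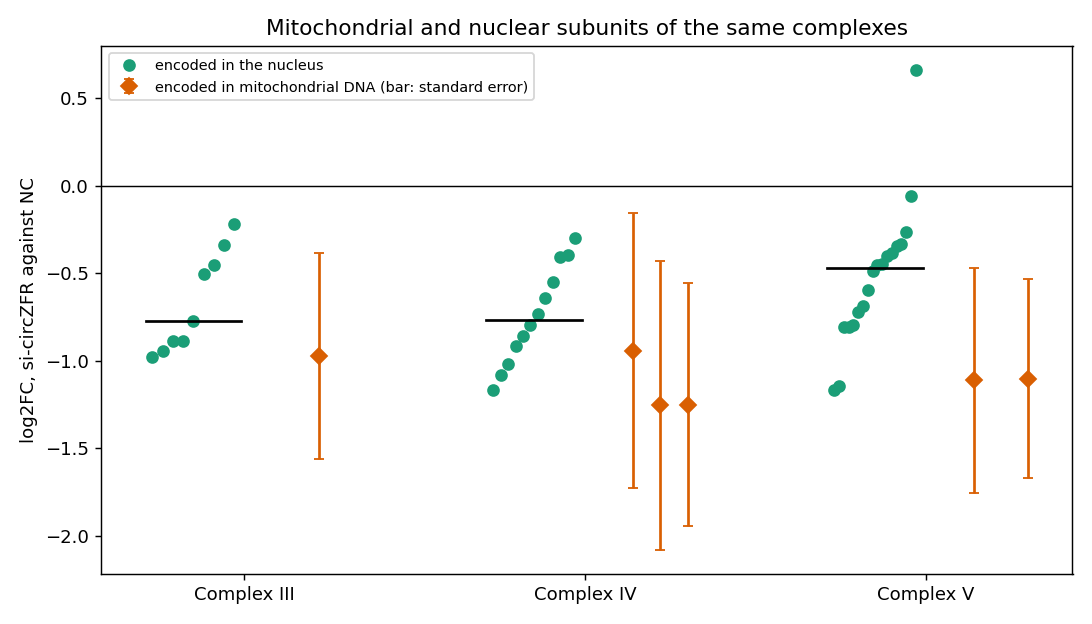
log2FC of si-circZFR against NC for nuclear subunits (circles, with a bar at their median) and for the mitochondrial DNA subunits (diamonds, with standard errors) of complexes III, IV and V. The nuclear medians are -0.77, -0.76 and -0.47, and the mitochondrial values lie from -1.25 to -0.94.

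The nuclear partners of the members had a negative log2FC for 9 of 9 genes of complex III, 12 of 12 of complex IV and 17 of 18 of complex V, none of them called, with medians closer to 0 than that of the members. Among all genes tested, 50.9% had a negative log2FC, and 11.8% were lower and 9.51% higher at an unadjusted p under 0.05 by limma. Of 9 nuclear subunits of complex III, 9 had a negative log2FC, 5 were lower at an unadjusted p under 0.05 and none was called, with a median of -0.77. *UQCRQ*, a small structural subunit, had -0.98 (FDR = 0.131 by limma), and *CYC1*, cytochrome c1, had -0.77 (FDR = 0.138). Of 12 nuclear subunits of complex IV, all had a negative log2FC, 7 were lower at an unadjusted p under 0.05 and none was called (median -0.76). *NDUFA4* had -1.08 (FDR = 0.126 by limma) and *COX7B* -1.17 (FDR = 0.16). *COX4I1*, the subunit that joins the mitochondrial core early in assembly, had -0.30 (FDR = 0.653) and is named after its value was seen. Of 18 nuclear subunits and regulators of complex V, 17 had a negative log2FC, 6 were lower and 1 was higher at an unadjusted p under 0.05, and none was called (median -0.47). *ATP5I* and *ATP5E* had -1.17 and -1.15 (FDR = 0.0808 and 0.0825 by limma), and *ATP5D*, a subunit of the central stalk, had 0.66 (FDR = 0.213). The choice of control library mattered for these lists. Without NC 2, the medians for complexes III, IV and V were -0.47, -0.36 and -0.18, with none called. Without NC 1, they were -0.97, -1.18 and -0.82, and 4, 8 and 3 nuclear subunits were called, in a fit that called 1019 of all 13522 genes tested (493 of them lower) against 8 of 13885 with all libraries. Without si-circZFR 2, they were -0.63, -0.77 and -0.54, where the members' median was -0.66, so that of complex IV was then the farther from 0. With the correction for transcript length they were -0.57, -0.39 and -0.36, and 4 of 9, 4 of 12 and 6 of 18 were lower at an unadjusted p under 0.05. In complex V, 2 genes were called with RPKM of at least 5, in a fit that called 167 of all 8739 genes tested. By limma-voom 1 was called, where 285 of all 13885 genes tested were.

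Genes that make, process and translate mitochondrial mRNAs were compared from lists of known genes. None was called. The medians given for transcription, maintenance and assembly genes are negative with scaling and become 0.12, 0.05 and 0.08 with RPKM as deposited, where the median of all genes was 0.15. Of 9 transcription genes, 2 were lower at an unadjusted p under 0.05 and none was higher (median -0.03). These were *TFB2M*, which helps the mitochondrial RNA polymerase to open promoters, at -0.59 (FDR = 0.124 by limma), and *TFAM*, which packs mitochondrial DNA and activates its promoters, at -0.56 (FDR = 0.179). *TFB2M* had 14.2 and 14.2 scaled RPKM in NC and 9.05 and 9.21 in si-circZFR, and *TFAM* had 8.14 and 10.7 in NC and 5.67 and 6.38 in si-circZFR. The polymerase itself, *POLRMT*, had 22.7 and 23.6 in NC and 25.8 and 31.4 in si-circZFR, a log2FC of 0.29 (FDR = 0.368). Of 21 genes of RNA processing, stability and decay, 4 were lower at an unadjusted p under 0.05 and none was higher (median -0.26). *SLIRP*, which together with *LRPPRC* stabilises mitochondrial mRNAs, had 111 and 164 in NC and 89.4 and 72.5 in si-circZFR, a log2FC of -0.74 (FDR = 0.188). *LRPPRC* had 40.6 and 45.6 in NC and 37.8 and 43.7 in si-circZFR, with overlapping groups and a log2FC of -0.08 (FDR = 0.814). *REXO2*, an oligoribonuclease, had -0.53 (FDR = 0.188), and *FASTKD2*, a mitochondrial RNA-binding protein, had -0.45 (FDR = 0.218). *TBRG4* and *FASTKD5*, 2 further members of this FASTK family that act on mitochondrial RNA, had -0.37 (FDR = 0.271) and 0.07 (FDR = 0.853).

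Of 12 mitochondrial translation genes, 3 were lower at an unadjusted p under 0.05 and none was higher (median 0.00). They were the ribosome recycling factor *MRRF* at -0.81 (FDR = 0.0958 by limma), the initiation factor *MTIF3* at -0.50 (FDR = 0.165) and *OXA1L*, which inserts new subunits into the inner membrane, at -0.69 (FDR = 0.198). Of 13 genes of mitochondrial DNA maintenance, *SSBP1*, a single-stranded DNA-binding protein, was lower at -0.50 (FDR = 0.18) and the topoisomerase *TOP1MT* higher at 0.53 (FDR = 0.153), both at an unadjusted p under 0.05 (median of the list -0.13). Of 32 assembly factors of complexes III to V, 6 were lower and 2 higher at that level (median -0.10). For these 3 lists too, the shares of all genes tested were 11.8% lower and 9.51% higher. *COX10*, which makes an intermediate of the heme of complex IV, had 8.01 and 7.39 scaled RPKM in NC and 4.64 and 2.98 in si-circZFR, a log2FC of -0.88 (FDR = 0.119). *COX15*, which acts in the same heme pathway, had 4.98 and 4.83 in NC and 6.61 and 7.57 in si-circZFR, a log2FC of 0.45 (FDR = 0.192). *UQCC*, an assembly factor of complex III, had 0.63 (FDR = 0.18). *TACO1*, which activates translation of *COX1* mRNA, had 24.0 and 35.7 in NC and 24.1 and 27.7 in si-circZFR, with a log2FC of -0.18 (FDR = 0.683).

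Nuclear pseudogene copies of the members could share reads with them. The tables list 13 such copies of *COX1*, *COX2*, *COX3*, *CYTB* and *ATP6*, and 8 of them were at 0 in all 4 libraries. All copies together had 177 and 268 reads in NC and 160 and 76 in si-circZFR, compared with 344320 to 1118881 reads on the 6 members. *MTCO1P2* had 134 and 212 reads in the controls and 121 and 62 after silencing, the order seen in the members.

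The members' own pattern over the 4 libraries was set beside that of 5542 genes outside mitochondrial DNA with a mean RPKM of at least 10. Likeness was the root mean square difference between centred log2(scaled RPKM + 1) values over the 4 libraries, against the mean of the members. The closest were the ribosomal protein pseudogenes *RPL31P49* (0.081) and *RPL10P6* (0.086), the ubiquitin-conjugating enzyme gene *UBE2S* (0.097), *MTCO1P2* (0.11) and the ribosomal protein pseudogene *RPS28P7* (0.119). The members themselves lay between 0.048 for *ATP6* and 0.194 for *CYTB*, and 20 of the 5542 genes were as close as *CYTB*. The reference is the members' own mean, which favours their values. Among mitochondrial DNA genes, left out of that pool, *ND3* (0.134) and *ND4* (0.146) were closer than *COX2* (0.181) and *CYTB*. This is a description over 4 libraries.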

How the data were processed

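RNA-seq was available for 2 NC and 2 si-circZFR libraries (total RNA, Ion Proton). The authors deposited RPKM values, reads relative to gene length and to the library's mapped reads, in 1 table per library. For its RNA-seq in general, the article names hg38, and the submitters' processing notes name GRCh37. The aligner, annotation and counting rule are not given in the sources used here. The article states batch removal by SVA and testing by edgeR, a test for counts that was not used on RPKM here. For silencing of circZFR it reports more genes at the same FDR and fold change thresholds than were called here. Groups and replicate numbers came from the sample labels.

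Library totals were found as the first number that makes all mitochondrial genes whole reads at their RefSeq length (GRCh38.p14, tolerance 0.01 reads). Lengths were then searched for the other genes, which gave whole reads for 24282 of 24289 genes above 0. The first length that fitted was taken. With reads in few libraries a wrong length can fit, so this count does not show that the lengths and reads of such genes are right. Values were scaled by trimmed mean of M values without weights, trimming 30% by ratio and 5% by level, with factors from 0.886 to 1.11. limma with a trended prior variance was fitted to all genes tested. Lists were described by counts and medians only. The members, lists, tests and the rule for named genes were chosen with earlier results of these data known. The rule names the members, the other mitochondrial mRNAs and rRNAs, *ZFR*, 7 genes of known roles in mitochondrial RNA, up to 3 genes of each list with the smallest p, pseudogene copies and the 5 genes closest in pattern. R 4.3.3, limma 3.58.1, Python 3.11.15, numpy 2.4.6, pandas 2.3.3, numba 0.67.0 and matplotlib 3.10.9 were used.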

Additional observations from a re-analysis of the deposited data

How the results depend on the processing

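The log2FC of each of the 6 members stayed negative and uncalled under all 14 alternative settings, 84 values in all. The number of members lower at an unadjusted p under 0.05, 0 in the fit reported, was 6 without a trend in the prior variance, 6 by limma-voom on recovered reads and from 0 to 3 when single libraries were left out (3 without NC 1). The cause was not tested. The members' median ran from -1.60 to -0.66 over single libraries left out. With RPKM as deposited the median of all genes was 0.15 and that of the members -0.91, or -1.06 relative to all genes. The share of all genes lower at an unadjusted p under 0.05 was then 6.94% in place of 11.8%. Without a filter the members' unadjusted p, from limma's model over all genes, rose to 0.87 or more. With the replicate number as a block, the members' FDR was 0.526 to 0.756 by limma and no member was called. The replicate differences of the groups correlated at 0.07 across genes, so the numbers were not taken as pairs. The number of genes called among all tested was 8, against 2 with a pseudocount of 0.1, 167 with RPKM of at least 5, 17 with the block, 14 with the length correction, 0 without the trend, 285 by limma-voom and from 0 to 1019 with single libraries left out. The members' share of library reads was lower in si-circZFR by -4.56 to -2.17 percentage points with single libraries left out. Their share of the 13 mRNAs differed by -2.08 points, and by 2.70 without NC 2 and -6.86 without NC 1, settings added after the data were seen. With 2 libraries in each group, the number of libraries and not read depth limits these values.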

Other observations

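The 22 mitochondrial transfer RNAs that punctuate the precursors were all tested. Of 14 on the heavy strand, 13 had a negative log2FC and 9 were lower at an unadjusted p under 0.05 by limma, with a median of -0.97, and none was called. Their totals ran from 5 to 5942 reads over the 4 libraries, and the 9 include *TRNG*, with 2 reads or fewer in each library. Of 8 on the light strand, 7 were negative and 2 were lower at that level (median -0.82), on totals of 26 to 283 reads over the 4 libraries. Among all genes tested, 50.9% had a negative log2FC and 11.8% were lower at that level. *TRNT*, which follows *CYTB* directly, had 398 and 431 scaled RPKM in NC and 405 and 370 in si-circZFR, so its groups overlapped. *TRND*, which precedes *COX2*, had 291 and 167 in NC and 144 and 99.4 in si-circZFR. *TRNK*, which lies between *COX2* and *ATP8*, had 12.1 and 5.03 in NC and 2.47 and 4.65 in si-circZFR, on 10 reads or fewer in each library. Transfer RNAs are short and their reads few, and *TRNR* had 57.2 in si-circZFR 1 (43 reads) against 7.82 or less in the other libraries (at most 6 reads). These transfer RNAs were named after their values were seen.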
